A study of Mus musculus with 5 samples.

Results

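The T cell receptor gamma locus (Tcrg) was examined in ATAC-seq peak lists of 5 mouse thymocyte libraries. In ATAC-seq a transposase cuts and tags open DNA, so a peak marks accessible chromatin. The locus was taken as the 250 kb of chromosome 13 that begin at 19250001 on the mm9 build, and every deposited peak that overlapped it by at least 1 bp was a member. There were 227 such peaks among 332881 peaks in the 5 lists. The span was chosen because earlier results on these lists had shown more peaks there in γδ than in double-positive (DP) thymocytes, so the numbers of peaks are given as a description.

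The SOX13hi and SOX13lo libraries came from CD24+ γδ thymocytes in which the cyan reporter (CFP) of Sox13, an HMG-box transcription factor gene, was high, or low to absent, in that order. These mice were C57BL/6, lacked TCRbeta and carried an ECFP knock-in on 1 Sox13 allele (TCRbeta KO.Sox13 ECFP KI/+). The transgenic SOX13hi and transgenic SOX13lo libraries were sorted in the same way from mice that also carried a Sox13 transgene (TCRbeta KO.Sox13tg+.Sox13 ECFP KI/+). DP thymocytes came from wild-type C57BL/6 mice, so cell type and genotype differed together in every comparison with DP. Each group held 1 library, which leaves no replicate check and allows no p-value. The labels used here give no age, number of animals or transgene promoter.

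The Tcrg locus encodes the γ chain of the γδ T cell receptor. A functional gene is assembled in the thymus by joining a variable (V) segment to a joining (J) segment beside a constant (C) region, and the DNA between joined segments can be lost. The RAG recombinase can act only on accessible segments, and signalling from the interleukin-7 receptor through STAT5 is known to open this locus. In cells that take the αβ path, transcription of γ genes is normally shut off. RefSeq (GRCm38.p6) lists 15 segments, of which 7 are V segments, 4 J segments and 4 C regions. Their order is Trgv7, Trgv4, Trgv6, Trgv5, Trgj1, Trgc1, Trgv3, Trgj3, Trgc3, Trgc2, Trgj2, Trgv2, Trgv1, Trgj4 and Trgc4, and Stard3nl, a protein-coding gene, follows. That build differs from mm9, so peaks were not placed on segments and no sequence was read. Whether the span used here reaches into Stard3nl was not determined either. Some segments and C regions are close copies of each other, and how the authors treated reads that match several copies is not given in the sources used here.

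List lengths differed, from 33155 peaks in transgenic SOX13lo to 113877 in DP, and the read depth behind them is unknown. The main counts are therefore also given for lists of equal length, made of the 33155 highest-scoring peaks of each library. The score is a whole number the authors gave to each peak, and it was compared only within a list. Inside the SOX13lo file every peak carries a SOX13hi name, and the sample's label was followed. Transgenic SOX13hi and DP carry the same index sequence in the labels. Peaks were not assigned to genes, so the sorts were not checked against marker genes. An open site in fewer cells and a less open site in all cells cannot be told apart.

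With all deposited peaks, the locus held the most peaks in the non-transgenic γδ libraries. SOX13hi had 67 peaks (exact Poisson 95% interval 51.9 to 85.1), or 2.68 per 10 kb. SOX13lo had 65 (50.2 to 82.8), or 2.60 per 10 kb. Transgenic SOX13hi had 53 (39.7 to 69.3), or 2.12 per 10 kb, and transgenic SOX13lo had 15 (8.40 to 24.7), or 0.600 per 10 kb. DP, although its list was the longest, had 27 (17.8 to 39.3), or 1.08 per 10 kb. The intervals of the 3 longer γδ lists lay above that of DP, and that of transgenic SOX13lo overlapped it. The span was chosen for this contrast, so the separation only describes it. The order of the 3 longer γδ lists changed under other settings. Without peaks of 30 bp or less SOX13hi, SOX13lo and transgenic SOX13hi all had 1.04 per 10 kb, and with the upper 50% of each list by score they had 0.800, 1.04 and 0.880. All intervals cover counting error only.

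Relative to list length, all 4 γδ libraries had higher values than DP, the contrast for which the span was chosen. The locus gave 1.23 of every 1000 peaks in SOX13hi, 0.963 in SOX13lo, 0.829 in transgenic SOX13hi, 0.452 in transgenic SOX13lo and only 0.237 for DP. The ratio to DP, with its exact conditional binomial 95% interval, was 5.19 (3.28 to 8.44) in SOX13hi, 4.06 (2.56 to 6.62) in SOX13lo and 3.50 (2.16 to 5.78) in transgenic SOX13hi. It was 1.91 (0.944 to 3.72) in transgenic SOX13lo, an interval that includes 1. A difference of at least 2-fold in this direction was met by 12%, 10.2% and 11.3% of windows compared for the first 3 libraries. For transgenic SOX13lo, whose locus value stayed below 2-fold, it was met by 11.9%. For such shares, here and below, only 250 kb windows with at least 10 peaks in the 2 libraries together were compared. Against DP these numbered 4501, 4570, 4571 and 4237. With lists of equal length the locus held 29, 25, 24 and 15 peaks in the 4 γδ libraries, in the same order, and 6 in DP. The ratios to DP were then 4.83 (1.97 to 14.2), 4.17 (1.67 to 12.4), 4.0 (1.59 to 12) and 2.50 (0.917 to 7.86). The 2-fold mark was then passed by 9.19%, 7.88%, 9.01% and 10.1% of windows.

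**Figure D1:**
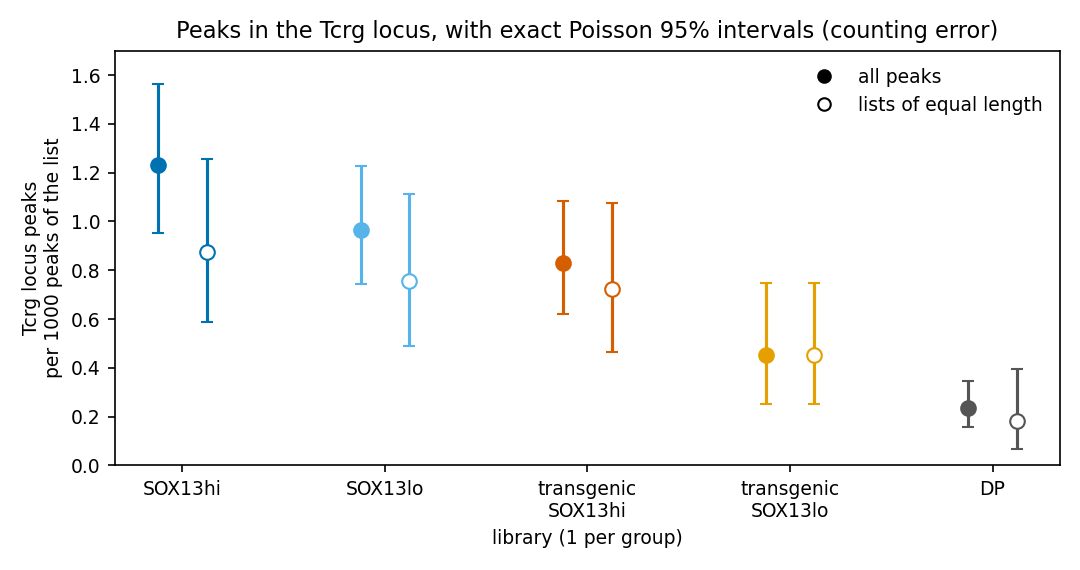
Peaks in the Tcrg locus per 1000 peaks of each list (y axis) for the 5 libraries (x axis), with all deposited peaks (filled) and with lists of equal length (open). Bars are exact Poisson 95% intervals. With all peaks the values descend from 1.23 in SOX13hi to 0.237 in DP, and with equal length from 0.875 to 0.181.

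The locus stood out sharply from the DNA beside it. In the 250 kb below it the lists held 0 to 2 peaks each, and in the 250 kb above it 0 or 1. SOX13hi had 2 and 1 peaks in these flanks against 67 within. DP had the same 2 and 1 against 27 within. The nearest peak below the locus lay 18.8 kb outside the bound in SOX13hi, SOX13lo and DP, with score percentiles of 57.6, 53.8 and 73.2. Here and below, a percentile is the percentage of the same list's peaks with a lower score, with peaks of equal score counted by 0.5. In the transgenic SOX13hi and SOX13lo lists it lay 383 and 441 kb outside. The first peak inside lay 4.07 to 4.13 kb from the bound in these lists, at percentiles of 59.8, 70.4 and 75.4, and 19.6 and 24.3 kb from it in the transgenic SOX13hi and SOX13lo lists. At the upper bound the last peak inside lay 9.69 to 12.2 kb from it in all 5 lists. The first peak outside lay 212 kb away in all lists except transgenic SOX13lo, where it lay 446 kb away.

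Among the 7038 windows of 250 kb that held a peak of any list, only 3 had more peaks than the locus in SOX13hi. In SOX13lo 7 did, and in transgenic SOX13hi 7. In transgenic SOX13lo 297 windows had more, and in DP 1469. The median window held 6 peaks in SOX13hi, 7 in SOX13lo, 7 in transgenic SOX13hi, 3 in transgenic SOX13lo and 11 for DP. DP, with 27 peaks, was thus above its own median window too. With lists of equal length the windows ahead of the locus numbered 10, 20, 19, 297 and 2012 of 6207.

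Peaks within the locus fell into separate clusters. Of 25 consecutive windows of 10 kb, 8 held no peak in any list. SOX13hi and SOX13lo had peaks in 15 windows each, transgenic SOX13hi in 11, transgenic SOX13lo in 7 and DP in 13. The 5 windows with most γδ peaks held 67.2% of the SOX13hi, 58.5% of the SOX13lo, 66.0% of the transgenic SOX13hi and 86.7% of the transgenic SOX13lo locus peaks, and 40.7% of those of DP. The fullest began at 19430001, with 16 peaks in SOX13hi, 15 in SOX13lo, 10 in transgenic SOX13hi, 1 in transgenic SOX13lo, with 3 in DP. Its neighbour at 19440001 held 9, 9, 11, 5 and 4 in the same order. The window at 19270001 held 7, 6, 8, 2 and 3, that at 19390001 held 10, 5, 2, 2 and 1, and that at 19310001 held 3, 3, 4, 3 and 0. The window at 19440001 held the most transgenic SOX13lo peaks, and the one before it the most in SOX13hi and SOX13lo.

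**Figure D2:**
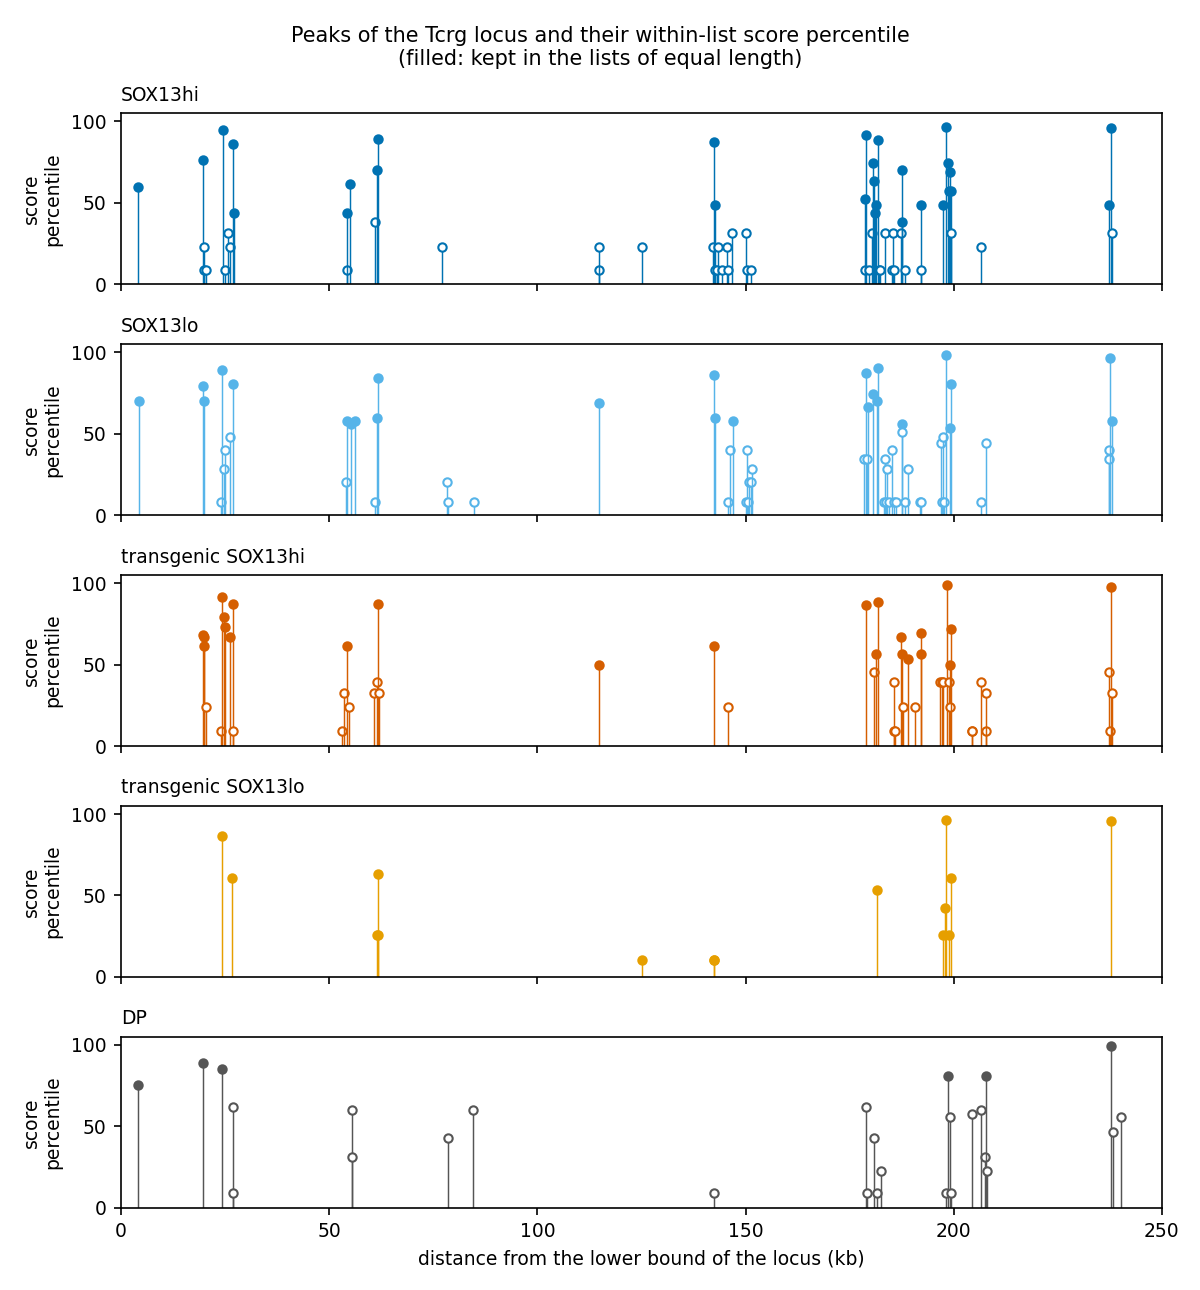
Each peak of the Tcrg locus by its distance from the lower bound (x axis, kb) and its within-list score percentile (y axis, percent), in 1 panel per library. Filled points are kept in the lists of equal length. In all 5 libraries most peaks lie in the 5 longest stretches described next, and DP has 6 filled points against 29 in SOX13hi.

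Joining all peaks of the 5 lists that lay within 5 kb of each other gave 10 stretches, which covered 24.2% of the locus. This grouping was made after the values were seen. The longest stretch, chr13:19428459-19458089, spans 178 to 208 kb from the lower bound. It held 30 peaks in SOX13hi, 30 in SOX13lo, 27 in transgenic SOX13hi, 6 in transgenic SOX13lo, with 14 in DP, which is 40% to 51.9% of the locus peaks of each list. The stretch chr13:19269613-19277193, at 19.6 to 27.2 kb, held 10, 8, 11, 2 and 4 peaks. The stretch chr13:19302999-19312075, at 53.0 to 62.1 kb, held 6, 7, 8, 3 and 2. The stretch chr13:19392089-19401543, at 142 to 152 kb, held 13, 11, 2, 2 and 1. The stretch chr13:19487232-19490314, at 237 to 240 kb, held 3, 4, 4, 1 and 3. The other 5 stretches held at most 2 peaks per list.

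**Figure D3:**
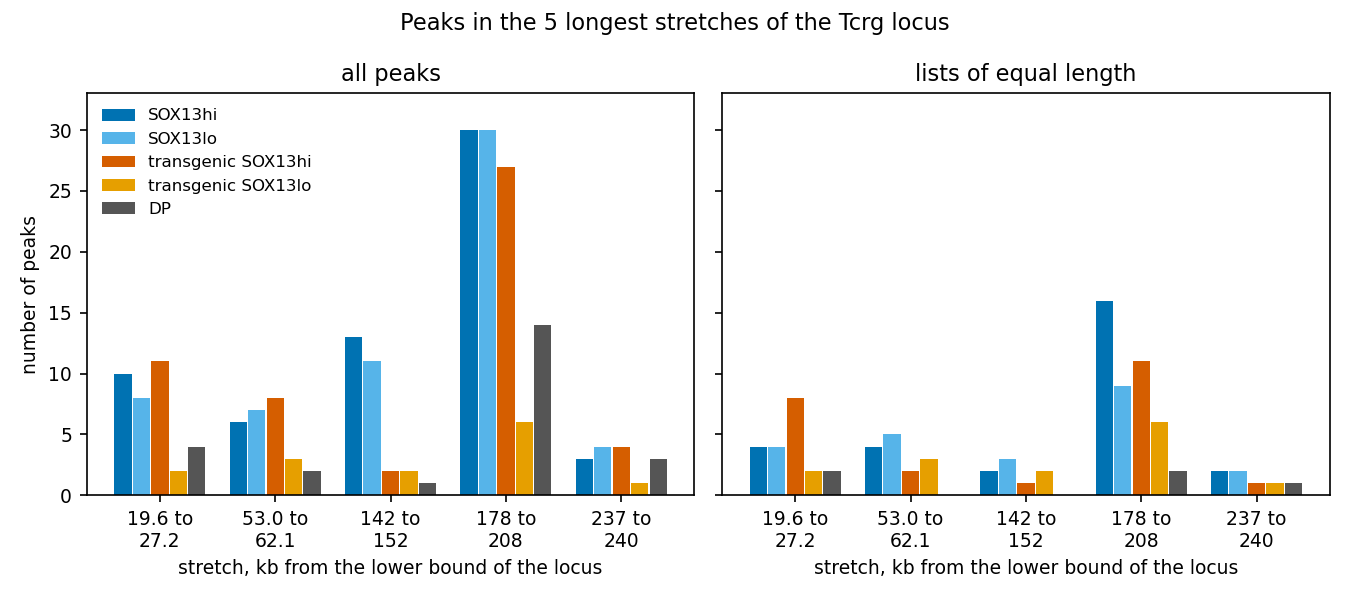
Number of peaks (y axis) in the 5 longest stretches of the Tcrg locus (x axis, kb from its lower bound) in each library, with all peaks (left) and with lists of equal length (right). With all peaks, SOX13hi and transgenic SOX13hi differ by at most 3 peaks in every stretch but that at 142 to 152 kb (13 against 2 peaks), where equal length leaves 2 against 1.

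With all peaks, the highest score of the locus lay at 198 kb in every γδ library, and in DP it lay elsewhere. The peak was chr13:19448175-19448202 in SOX13hi (score 123, percentile 96.4) and chr13:19448167-19448195 in SOX13lo (254, 98.1). It was chr13:19448156-19448209 in transgenic SOX13lo (84, 96.5). In transgenic SOX13hi the highest score belonged to a wider peak just above these, chr13:19448293-19448693 (401 bp, score 185, percentile 98.7). The SOX13hi and SOX13lo peaks were 28 and 29 bp wide. Without peaks of 30 bp or less, the highest scores of the locus in SOX13hi and SOX13lo lay at 238 kb (120 and 177), as in DP. DP had a 28 bp peak at the first position, chr13:19448159-19448186, with the lowest score of its list (5, percentile 9.03). Its stronger peak, chr13:19448544-19448940 (score 40, percentile 80.6), overlapped the wide transgenic SOX13hi peak instead. All 5 lists thus had peaks at this site, with the highest-scoring one at the lower position in 3 γδ lists and at the upper position in transgenic SOX13hi and DP.

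The second site common to all lists was at 238 kb, in the uppermost stretch. The region chr13:19487637-19487787 scored 120 in SOX13hi, 177 in SOX13lo, 137 in transgenic SOX13hi and 73 in transgenic SOX13lo, at percentiles of 96.2, 96.3, 97.5 and 95.4. In DP its score of 533 was the highest of the locus, at percentile 99.4. It was the only region of the locus above percentile 95 in all 5 lists. Whether it belongs to a γ segment or to a neighbouring gene such as Stard3nl was not determined. The region chr13:19274122-19274674, at 24.1 kb, also ranked high in all 5. Its percentiles were 94.8, 89.4, 91.7 and 86.3 in the 4 γδ libraries and 85.1 in DP. These 2 regions were the only ones of the locus in all 5 lists when lists of equal length were used. The region chr13:19276636-19276871, nearby, stood at 85.9, 80.3, 87.0 and 60.5 in the γδ libraries and at 61.6 in DP.

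At other sites with a peak in all 5 lists, the DP peak had the lowest score of its list, and γδ percentiles ran from 10.2 to 90.4. The region chr13:19431565-19431907, at 182 kb, scored 58, 91, 54 and 13 in SOX13hi, SOX13lo, transgenic SOX13hi and transgenic SOX13lo, at percentiles of 88.8, 90.4, 88.7 and 53.1. DP had a score of 5 there, at percentile 9.03. The region chr13:19449298-19449482 stood at percentiles of 57.6, 80.3, 72.2 and 60.5 in the γδ libraries and again at 9.03 in DP. The region chr13:19392294-19392605, at 142 kb, was high in both non-transgenic libraries (scores 52 and 66, percentiles 87.2 and 86.3). It was lower in transgenic SOX13hi (16, 61.4) and at the bottom of the transgenic SOX13lo (8, 10.2) and DP (5, 9.03) lists.

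Regions present in all 4 γδ libraries and absent from DP numbered 2 in the locus (1.64%, exact Clopper-Pearson interval 0.199 to 5.80), against 0.694% of all regions of the genome, and they were neighbours. The region chr13:19311503-19311872, at 61.5 kb, scored 59 in SOX13hi, 56 in SOX13lo, 48 in transgenic SOX13hi and 16 in transgenic SOX13lo, at percentiles of 89.0, 84.0, 87.0 and 63.0. Its neighbour, chr13:19311305-19311449, scored 23, 19, 10 and 9, at percentiles of 70.5, 59.6, 39.6 and 25.7. DP had no peak in the whole window that begins at 19310001. With lists of equal length, 5 regions (10.6%, 3.55 to 23.1) met this description, against 2.48% of all regions. These lists keep 33155 of the 113877 DP peaks, down to a score of 23, but every transgenic SOX13lo peak. The regions were chr13:19311503-19311872 again and those that begin at 19276636, 19392294, 19431565 and 19449298. The latter each had a DP peak among all peaks, with scores of 16, 5, 5 and 5 in that order. The region at 19276636 stood at percentile 61.6 in DP and 60.5 in transgenic SOX13lo. With all peaks, leaving out the SOX13lo list also gave 2 such regions. Leaving out the short transgenic SOX13lo list gave 12 (9.84%, 5.19 to 16.6), against 1.89% of all regions. Among regions with a γδ peak these were 12 of 114 in the locus, against 2980 of 93939 over the genome. The span was chosen for more γδ than DP peaks, so these shares and intervals only describe it.

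**Figure D4:**
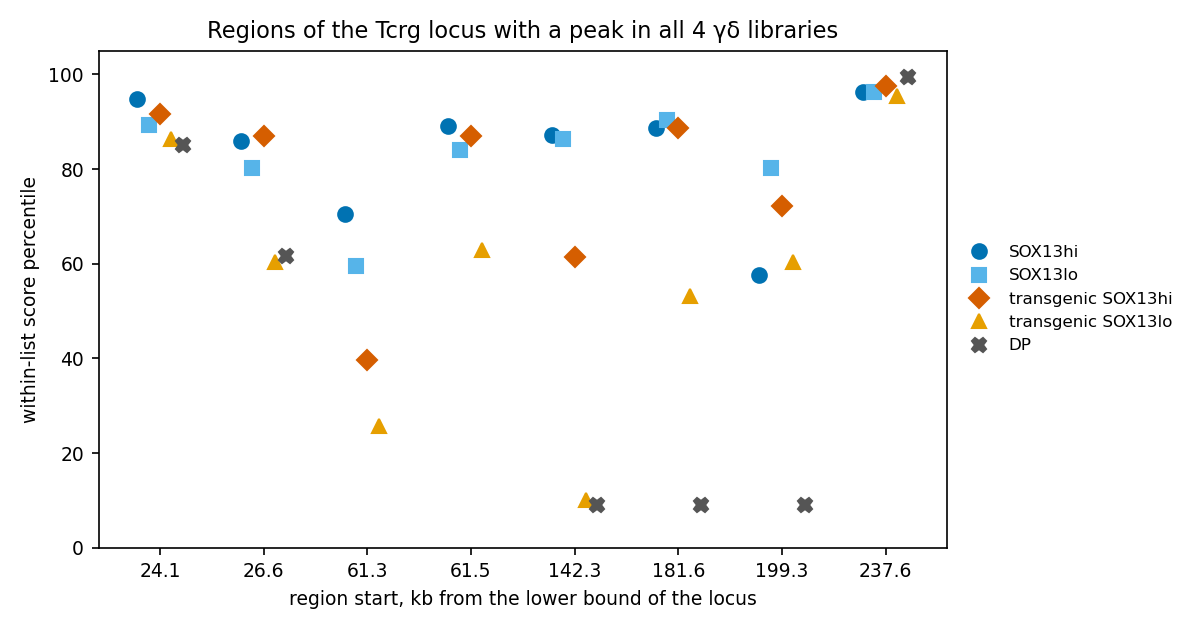
Within-list score percentile (y axis, percent) of the 8 regions of the Tcrg locus with a peak in all 4 γδ libraries (x axis, start of the region in kb from the lower bound). The DP points lie at 85.1 and 99.4 in the regions at 24.1 and 237.6 kb, at 61.6 in that at 26.6 kb and at 9.03 in 3 others, and DP has no point in the 2 regions at 61.3 and 61.5 kb.

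DP also had peaks that were weak or missing in γδ cells. The uppermost part of the longest stretch, in the window that begins at 19450001, held 5 DP peaks, 1 in SOX13hi, 2 in SOX13lo, 5 in transgenic SOX13hi and 0 in transgenic SOX13lo. The DP peak chr13:19457567-19457770 scored 41 (percentile 81.0). At the same place SOX13lo had a peak of score 13 (percentile 44.4) and transgenic SOX13hi had peaks of scores 9 and 7, while SOX13hi and transgenic SOX13lo had none. The 3 highest regions of DP without any γδ peak were chr13:19334608-19334635 (score 15, percentile 59.8), chr13:19490282-19490314 (13, 55.5) and chr13:19488341-19488446 (10, 46.8). None of these 3 was kept in the DP list of equal length. A SOX13lo peak of score 8 lay beside the first, and joining peaks within 150 bp put both in 1 site. Another strong DP peak, chr13:19269664-19269694 (score 81, percentile 89.0), was not of this kind. It lay in a region shared with SOX13hi (29, 76.1) and SOX13lo (42, 79.0), with transgenic SOX13hi peaks of scores 20 and 19 close by.

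With all peaks, each transgenic library had fewer Tcrg peaks than its non-transgenic counterpart. For the SOX13hi pair this did not hold under every setting, since transgenic SOX13hi had 0.880 peaks per 10 kb against 0.800 in SOX13hi with the upper 50% by score, and both had 1.04 without peaks of 30 bp or less. Per 1000 peaks, transgenic SOX13hi stood at 0.674 times SOX13hi (0.461 to 0.980), a difference below the 2-fold mark. Of the windows compared, 2.15% passed the mark in this direction. With equal length the ratio was 0.828 (0.461 to 1.47), an interval that includes 1, and 1.95% of windows passed the mark. Transgenic SOX13lo stood at 0.470 times SOX13lo (0.249 to 0.833), and 10.5% of the windows compared were at least 2-fold lower there. With equal length that ratio was 0.600 (0.294 to 1.18), short of the mark that 7.35% of windows passed. SOX13hi had 14 more peaks than transgenic SOX13hi over the whole locus and 11 more in the stretch at 142 to 152 kb alone, with 13 peaks (exact Poisson interval 6.92 to 22.2) against 2 (0.242 to 7.22). In SOX13hi these 13 peaks had a median score of 8, where the lowest score of the list is 7, and 2 of them were kept with equal length. With equal length SOX13hi had 29 peaks against 24 in transgenic SOX13hi over the locus. By stretch these were 16 against 11 at 178 to 208 kb, and 4 against 2 at 53.0 to 62.1 kb. They were 2 against 1 both at 142 to 152 kb and at 237 to 240 kb. At 19.6 to 27.2 kb SOX13hi had fewer, 4 against 8. SOX13lo exceeded transgenic SOX13lo by 50 peaks over the locus, by 24 in the stretch at 178 to 208 kb and by 9 in that at 142 to 152 kb. These are differences between lists of 67482 and 33155 peaks. With equal length the counts were 25 against 15 over the locus, 9 against 6 at 178 to 208 kb and 3 against 2 at 142 to 152 kb. With all peaks, SOX13lo had 11 peaks in the stretch at 142 to 152 kb, with a median score of 10 and a lowest list score of 8. In both non-transgenic lists most peaks of this stretch were thus near the lowest scores.

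Of the 122 regions of the locus, 0 (interval 0 to 2.98%) were present in both transgenic libraries and absent from both non-transgenic ones, and the share over all regions of the genome, 0.696%, lies within that interval. In the opposite direction 9 regions (7.38%, 3.43 to 13.5) were present in both non-transgenic libraries and in neither transgenic one, whether or not DP held them, against 2.42% of all regions. DP-only regions made up 40.3% of all regions but 6.56% of those in the locus, which raises γδ shares here. Among regions with a γδ peak, the counts were 9 of 114 in the locus, against 3811 of 93939 over the genome. Joining peaks of all lists within 150 bp gave 7 (10.1%, 4.18 to 19.8), against 2.55% of all regions, a share below this interval. With equal length there were 4 (8.51%, 2.37 to 20.4), against 3.20%. Without peaks of 30 bp or less there were 4 (6.90%, 1.91 to 16.7), against 3.28%. The intervals of these last 2 settings include the share over all regions. By the mean percentile over the lists that held them, DP included, the first was the region chr13:19269650-19269720. The next were chr13:19254072-19254259, with scores of 16 and 28 (percentiles 59.8 and 70.4), and chr13:19430616-19430857, with 27 and 33 (74.3 and 74.2). All 3 also had a DP peak. The other 2 named by the rule, chr13:19392721-19392823 (12 and 19) and chr13:19437667-19437697 (10 and 15), had none. With peaks of all lists joined within 150 bp, 4 of these 5 regions fell into sites that also held transgenic SOX13hi peaks, with best scores of 20 (the first), 11 (at 19430616), 16 (at 19392721) and 19 (at 19437667). The site at 19392721 also held 2 transgenic SOX13lo peaks, with a best score of 8. The site at 19254072 held no transgenic peak.

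The fractions sorted by CFP were close in number of peaks in the non-transgenic mice, with intervals that include 1. SOX13hi stood at 1.28 times SOX13lo (0.895 to 1.83) per 1000 peaks, and at 1.16 times (0.656 to 2.07) with equal length. In transgenic mice SOX13hi stood at 1.83 times SOX13lo (1.02 to 3.50), and at 1.60 times (0.806 to 3.28) with equal length. None of these reached 2-fold. Of the windows compared, 3% and 9.03% passed that mark in this direction in the non-transgenic and the transgenic pair, and 3.61% and 5.57% with equal length. Whether the transgenic and non-transgenic ratios differ was not tested.

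Sharing between lists was read peak by peak, with an overlap of at least 1 bp. Of the SOX13hi peaks in the locus 22.4% (13.1 to 34.2) met a DP peak, against 63.1% of the whole list. For SOX13lo the share was 20% (11.1 to 31.8) against 60.9%, and for transgenic SOX13hi 24.5% (13.8 to 38.3) against 61.2%. For transgenic SOX13lo it was 40% (16.3 to 67.7), an interval that includes the 66.6% of its whole list. The choice of the locus used this contrast. Among the γδ lists, 43.3% (31.2 to 56) of the SOX13hi peaks met a SOX13lo peak, against 62.7% of the whole list. That share was 70.1% with peak centres within 200 bp and 16.4% with a reciprocal overlap of 50%. In the other direction 41.5% of the SOX13lo peaks met a SOX13hi peak, against 46.4%. Of the transgenic SOX13hi peaks 50.9% met a SOX13hi peak, against 51.8%, and of the transgenic SOX13lo peaks 80% (51.9 to 95.7) did, against 62.6%. Of the 27 DP peaks, 55.6% (35.3 to 74.5) met a SOX13hi peak, against 25.9% of the whole DP list. For SOX13lo, transgenic SOX13hi and transgenic SOX13lo these shares were 48.1% (28.7 to 68.1), 44.4% (25.5 to 64.7) and 22.2% (8.62 to 42.3), against 32.5%, 29.8% and 15.9%, each within its interval. Merging the 5 lists gave 122 regions in the locus. Of these, 96 (78.7%, 70.4 to 85.6) were present in a γδ library and absent from DP, against 29.9% of all regions, and 8 (6.56%) were present in DP alone, against 40.3%. With equal length the first share was 87.2%, against 45.3%.

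The locus peaks are also described by their widths and ranks. In SOX13hi 61.2% of them were 28 to 30 bp wide (48.5 to 72.9), against 45.5% of the whole list, and in SOX13lo 60% (47.1 to 72), against 43.6%. The shares were 50.9%, 46.7% and 48.1% in transgenic SOX13hi, transgenic SOX13lo and DP, against 46.6%, 50.2% and 42.1% of their lists. The median percentile of the locus peaks was 31.6 in SOX13hi, with 47 of 67 peaks below the middle of the list. In SOX13lo 39 of 65 lay below the middle, in transgenic SOX13hi 29 of 53, in transgenic SOX13lo 8 of 15 and in DP 13 of 27. The median was 39.8 in SOX13lo, 39.6 in transgenic SOX13hi, 42.2 in transgenic SOX13lo, with 55.5 in DP. In the top 10% of their lists stood 4, 3, 3, 2 and 1 peaks of the locus, in the order SOX13hi, SOX13lo, transgenic SOX13hi, transgenic SOX13lo and DP, which is 5.97%, 4.62%, 5.66%, 13.3% and 3.70% of them, with intervals that all include 10%.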

How the data were processed

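ATAC-seq libraries of 5 thymocyte populations were used, 1 for each group. Per the labels' protocols, the γδ libraries were made from sorted cells. Each list that the authors deposited gives a position and a whole-number score for every peak. No header or label states what the score counts, and the aligner, peak caller and threshold are likewise not stated in the sources used here. The submitters' processing notes name mm9 as the build. Scores served only to order peaks of the same list.

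Peaks overlapping the locus by at least 1 bp were counted. Percentiles count ties by 0.5. Equal-length lists kept the 33155 highest scores, with ties broken by file order. Peaks of all lists that overlapped by at least 1 bp were merged into regions, and a region's score in a library is its highest. Windows of 250 kb were compared per 1000 peaks, with 2-fold as the mark and at least 10 peaks in both libraries together. Intervals are exact Poisson, Clopper-Pearson or, for ratios, exact conditional binomial 95% intervals. Scripts were tested on simulated lists.

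Named peaks and regions were the 3 highest-scoring peaks of each library, regions in all 5 libraries, the 5 (γδ without DP, and non-transgenic without transgenic) or 3 (DP alone) highest by mean percentile, and the 5 windows of 10 kb with most γδ peaks. Other peaks named were chosen after their values were seen. The members, lists and rules were chosen with earlier results of these data known. No replicate exists, so no test was run. Python 3.11.15, numpy 2.4.6, scipy 1.17.1 and matplotlib 3.10.9 were used.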

Additional observations from a re-analysis of the deposited data

How the results depend on the processing

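No paired analysis was possible because each group holds 1 library. The read depth is unknown and limits all counts.

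Every ratio to DP stayed above 1 under all alternatives run, which use the same lists that served to choose the locus. For transgenic SOX13lo the interval included 1 with all peaks (0.944 to 3.72) and with equal length (0.917 to 7.86). The SOX13hi ratio was 2.99 with the upper 50% of each list by score, and the others moved by less than their intervals. Densities per 10 kb followed the number of peaks kept. In the order SOX13hi, SOX13lo, transgenic SOX13hi and DP they were 1.16, 1.00, 0.960 and 0.240 with equal length. Leaving out the lowest score kept, an alternative added after seeing the data, gave 1.12, 1.00, 0.880 and 0.240. With the upper 50% they were 0.800, 1.04, 0.880 and 0.560, and 0.280 in transgenic SOX13lo. Without peaks of 30 bp or less they were 1.04, 1.04, 1.04 and 0.560, and 0.320 in transgenic SOX13lo. Joining peaks within 150 bp gave 1.80 in SOX13hi and 1.48 in transgenic SOX13hi. With 50 kb added on each side SOX13hi had 1.94, SOX13lo 1.91 and transgenic SOX13hi 1.51. Covered bases have another unit and gave no density.

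The share of peaks that met a DP peak was 4.48% in SOX13hi, 7.69% in SOX13lo and 3.77% in transgenic SOX13hi with a reciprocal overlap of 50%. It was 32.3% in SOX13lo with centres within 200 bp, and 12.5% and 13.3% in transgenic SOX13hi and SOX13lo with equal length. Regions in all 5 libraries numbered 2 with equal length and 1 without narrow peaks. Regions that all γδ lists held and DP lacked numbered 5 with equal length. Leaving out SOX13lo gave 2, the same as with all lists, and leaving out transgenic SOX13lo gave 12. Regions in both non-transgenic and neither transgenic library numbered 4 with equal length, 4 without narrow peaks and 7 when joined. DP-only regions numbered 1 with equal length, 5 when joined and 5 without narrow peaks. The percentile of the locus among windows was 99.8 in SOX13hi and 99.7 in SOX13lo with equal length. The median score percentile of SOX13hi was 47.6 within peaks wider than 30 bp. The causes of these shifts were not tested beyond the change in the number of peaks that each alternative makes by construction.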
